A study of Daphnia magna with 12 samples.

Results

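Copper oxide (CuO) nanoparticles and the dissolved copper salt CuCl2 were compared directly in whole water fleas (Daphnia magna, a planktonic crustacean of ponds and lakes that is a standard test animal of ecotoxicology). The comparison rests on 8 of the 12 arrays of the series, chosen by their labels alone: 4 with RNA of CuO-exposed animals and 4 with RNA of CuCl2-exposed animals. The other 4 arrays held blank animals, kept without added copper. All animals were 96 hours old when sampled, had spent 96 hours in ISO test medium with green algae as food, and the medium was renewed with a fresh spike after 48 hours. Each copper form was given at its own EC10 for immobilisation, that is, at the concentration that immobilises a small fraction of the animals, so the forms were matched by effect. The copper concentrations themselves are not in the labels, and the 2 forms cannot be compared per mass of copper. Each replicate was an RNA pool of 40 daphnids. Each pool was hybridised with the opposite dye to a common reference, an equal mixture of RNA from all 3 groups, with 2 pools per group in cy3 and 2 in cy5.

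Copper is an essential metal, a cofactor of respiratory and antioxidant enzymes, and it is toxic in excess because the free ion binds thiols and takes part in reactions that form oxygen radicals. Animals hold it in check with transporters, chaperones and metallothioneins, small cysteine-rich proteins that bind surplus metal. CuO nanoparticles release dissolved copper in water and in the gut, and filter-feeding daphnids also swallow the particles themselves. A direct comparison of particle and salt at equal effect therefore addresses whether the particle changes transcripts that the dissolved ion does not.

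The value table held 4247 Daphnia probes, each with a log ratio of sample to reference on every array. No probe could be paired with a gene through the tables at hand, so probes are described by ID, by the size of their response and by their values on each array. A sample was taken to lie in the numerator and the base of the logarithm to be 2. Neither is stated by the submitters, so every sign and every fold below rests on that reading. The RNA came from whole animals, where fewer cells of a type and less RNA per cell cannot be told apart. Within one dye orientation the 8 copper arrays correlated positively with each other over probes (r from 0.03 to 0.63). CuCl2 replicate 4 stood apart among the copper arrays, since its log2 ratios had an SD over probes of 0.711. CuCl2 replicates 1 to 3 had 0.386 to 0.434, the CuO replicates 0.357 to 0.439 and the blanks 0.533 to 0.654. The main results that rest on CuCl2 replicate 4 are given with and without it. Leaving out CuCl2 replicate 2 often moved results the other way, and for several of them that value is given too.

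At the median over pairs, CuO animals were no farther from CuCl2 animals than replicates of the same copper form were from each other. On the cy3 arrays the root mean square (RMS) distance of log2 ratios over all probes was 0.474 between the 2 CuO replicates and 0.548 between the 2 CuCl2 replicates. The 4 cy3 pairs of a CuO and a CuCl2 array lay at 0.368, 0.442, 0.453 and 0.536, so the cy3 CuO array nearest to a CuCl2 array was closer to it than to its own replicate. On the cy5 arrays the CuO replicates were 0.421 apart and the CuCl2 replicates 0.595. CuCl2 replicate 3 was at 0.371 and 0.369 from the 2 cy5 CuO arrays, and CuCl2 replicate 4 at 0.642 and 0.728. Over both orientations the 8 pairs between forms had a median of 0.448, and the 4 pairs within a form had one of 0.511. Without CuCl2 replicate 4 the remaining 6 pairs between forms had a median of 0.407, and the remaining pairs within a form lay at 0.421, 0.474 and 0.548. Without CuCl2 replicate 2 the pairs within a form lay at 0.421, 0.474 and 0.595. The pairs between forms then ran from 0.369 to 0.728, with a median above that within a form. The order of the medians thus rested on which CuCl2 arrays were used. Pairs of a copper array and a blank array were farther apart, from 0.596 to 1.10 with a median of 0.771. The largest of these, 1.10 and 1.06, were pairs with CuCl2 replicate 4, and the next was 0.855.

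**Figure D1:**
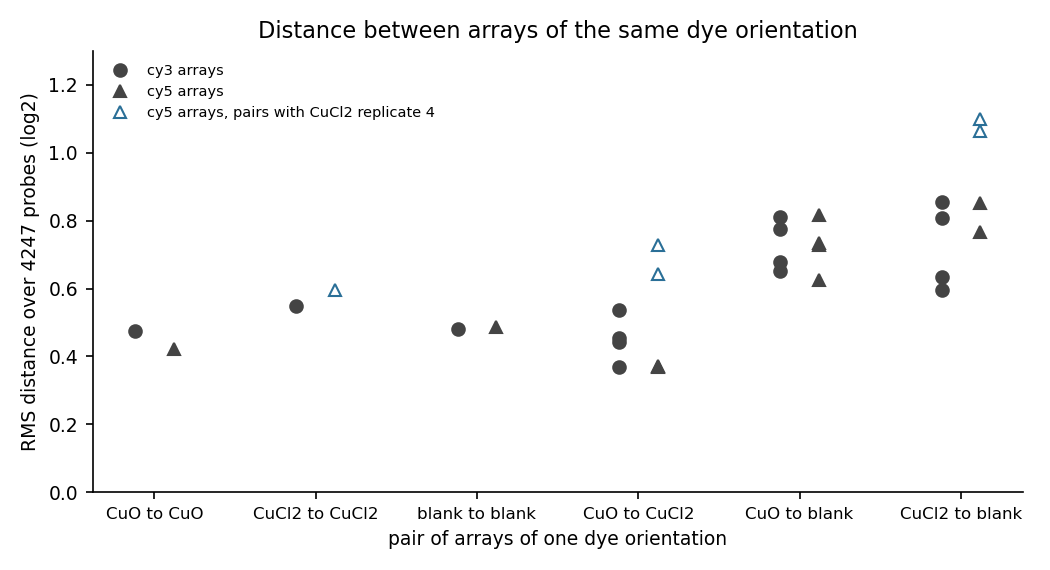
RMS distance of log2 ratios over 4247 probes (vertical axis) for each pair of arrays of the same dye orientation, by kind of pair; circles are cy3 pairs, triangles cy5 pairs, and open triangles pairs with CuCl2 replicate 4. Pairs of a CuO and a CuCl2 array (0.368 to 0.728) overlap pairs of the same form (0.421 to 0.595), and pairs with a blank reach 1.10.

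No single probe was called different between particle and salt. By limma's two-sided moderated test, 0 of the 4247 probes passed a Benjamini-Hochberg adjusted p under 0.05 (0% called), with 0.839 as the smallest adjusted value. Unadjusted p-values under 0.05 belonged to 198 probes (4.66%), 101 higher in CuO (2.38%) and 97 lower (2.28%). Those under 0.01 belonged to 35 probes (0.824%), and 0 probes were under 0.001. The estimates themselves were small: the median absolute difference was 0.13 on the log2 scale, 30 probes had an estimated difference of at least 2-fold, and 0 reached 4-fold. All 4 CuO values lay on one side of all 4 CuCl2 values for 152 probes (3.58%). By comparison, the same fit called 1279 probes (30.1%) for CuO against blank and 1726 (40.6%) for CuCl2 against blank.

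The number of small p-values depended on single CuCl2 arrays, in both directions. Leaving out CuCl2 replicate 2 raised the count at an unadjusted p under 0.05 to 616. With CuCl2 replicate 1 left out it was 105, and with replicate 4 left out 107. It was 443 with limma's array weights and 72 with no dye term. Within the cy3 orientation it was 69, and within the cy5 orientation 329. The adjusted count stayed at 0 in each of these except within the cy5 orientation, where 1 probe passed.

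Taken over the whole table, the difference between forms was within the spread among the 8 copper arrays. The RMS of the CuO minus CuCl2 difference over all probes was 0.277 on the log2 scale. When the form labels were exchanged within each dye orientation, the 36 regroupings gave values from 0.192 to 0.362 with a median of 0.222 (exact permutation test for a larger value, p = 0.333). The smallest p this design allows is 0.0556. The RMS difference was 0.214 without CuCl2 replicate 4 (exact permutation p = 0.722) and 0.376 without CuCl2 replicate 2 (exact permutation p = 0.0556, again the smallest possible).

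The probes that came nearest to a difference were small effects with tight replicates or larger effects with a wide spread. By rule the 5 smallest p-values in each direction are described, with each value given as the log2 ratio less the mean of the 6 arrays of its dye orientation. None of the 10 passed the adjusted threshold (limma adjusted p = 0.839 for each), and since they were picked for small p-values their differences are likely too large. For all 10 the values of the 2 forms did not overlap. That is the case for 3.58% of all probes, and choosing probes by small p-values favours it.

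DM06484P3 had values of 0.41, 0.43, 0.24 and 0.15 in CuO replicates 1 to 4 and of -0.29, -0.07, -0.19 and -0.32 in CuCl2 replicates 1 to 4. Its difference of 0.52 (SE 0.14) was nearly the same on the cy3 arrays (0.60) and the cy5 arrays (0.45). Its blank values of -0.24, -0.23 and -0.14 lay among those of CuCl2, and the one of 0.26 among those of CuO. Against blank it was called for CuO (limma adjusted p = 0.0463) and not for CuCl2 (limma adjusted p = 0.476). DM12897P1 had 0.26, 0.20, 0.17 and 0.29 in CuO and -0.26, -0.03, -0.32 and -0.24 in CuCl2, a difference of 0.44 (SE 0.12). The CuO replicates of this probe lay within 0.12 of each other, and the blanks, from -0.31 to 0.14, lay between or among the 2 forms. DM10510P1 likewise had CuO values from 0.15 to 0.36 and CuCl2 values from -0.66 to -0.01. Against blank DM10510P1 was called for CuCl2, at -0.49 (limma adjusted p = 0.0374), and not for CuO, at 0.12 (limma adjusted p = 0.616). DM13489P1 differed by 0.56 (SE 0.15), with CuO values from -0.02 to 0.22 and CuCl2 values from -0.70 to -0.19. Against blank this probe fell by 0.89 on the log2 scale in CuCl2 animals (limma adjusted p = 0.00144) and had -0.33 in CuO animals (limma adjusted p = 0.119). DM06499P3 showed the same order, with -0.89 against blank in CuCl2 (limma adjusted p = 0.0108) and 0.04 in CuO (limma adjusted p = 0.909). Its 4 CuO values were 0.62, -0.28, 0.24 and 0.71 and its 4 CuCl2 values -0.56, -0.50, -1.08 and -0.29, so CuO replicate 2 lay just above CuCl2 replicate 4. For none of the probes called in 1 form alone did the direct difference pass, so such a call does not show that the forms differ.

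Among the 5 lower in CuO, 4 were probes called higher for both forms together against blank and 1 was not. By form, DM08407P1, DM12355P1 and DM02083P4 were called against blank for CuCl2 (limma adjusted p = 0.000784, 0.00218 and 0.000739). These probes were not called for CuO (limma adjusted p = 0.118, 0.205 and 0.113). DM06797P1 was called for CuO (limma adjusted p = 0.00925) and for CuCl2 (limma adjusted p = 0.000217). DM08407P1 had 0.43, -0.19, -0.76 and -0.30 in CuO replicates 1 to 4 and 0.94, 0.73, 0.93 and 1.57 in CuCl2 replicates 1 to 4, against -1.22 to -0.20 in blanks. DM06797P1 had 0.41, 0.07, -0.22 and -0.02 in CuO and 1.19, 0.48, 0.90 and 1.52 in CuCl2, against -1.60 to -0.57 in blanks. DM12355P1 had 0.42, -0.17, -0.72 and -0.36 in CuO and 0.81, 0.65, 0.70 and 1.67 in CuCl2, against -1.24 to -0.22 in blanks. These 3 probes shared one pattern, with CuO replicate 1 highest and CuO replicate 3 lowest among the CuO arrays, and with CuCl2 replicate 4 above all others. Their differences were -1.25, -0.96 and -1.17 on the log2 scale (SE 0.29, 0.26 and 0.32), or -1.05, -0.78 and -0.90 without CuCl2 replicate 4. Without CuCl2 replicate 2 they were -1.36, -1.17 and -1.28. With no array left out, each difference was more than 2 times as large on the cy5 arrays (-1.78, -1.33 and -1.73) as on the cy3 arrays (-0.71, -0.60 and -0.60). DM02083P4 had the smallest p-value of the table (limma unadjusted p = 0.00121), with CuO values from -0.33 to 0.13 and CuCl2 values from 0.33 to 0.56. Its difference of -0.50 (SE 0.12) was even across orientations, -0.55 on cy3 and -0.46 on cy5.

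DM09680P3 was the exception, since its difference depended on the dye orientation. Against blank it was called lower in CuO, at -1.15 (limma adjusted p = 0.0333), and had 0.21 in CuCl2 (limma adjusted p = 0.664). Its CuO values were -0.16 and -0.20 on the cy3 arrays but -1.39 and -1.59 on the cy5 arrays, while CuCl2 had 0.08 and 0.14 on cy3 and 0.98 and 0.88 on cy5. The difference was -0.29 in the cy3 orientation but -2.42 in the cy5 one. It was the 1 probe called on the cy5 arrays alone (limma adjusted p = 0.0335). It was also the 1 probe of 4247 with a called interaction of form and dye orientation, of -2.12 (limma adjusted p = 0.0154), where 163 probes (3.84%) had an unadjusted p under 0.05. With 2 arrays per form and orientation, the dye and the particular pools cannot be told apart.

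**Figure D2:**
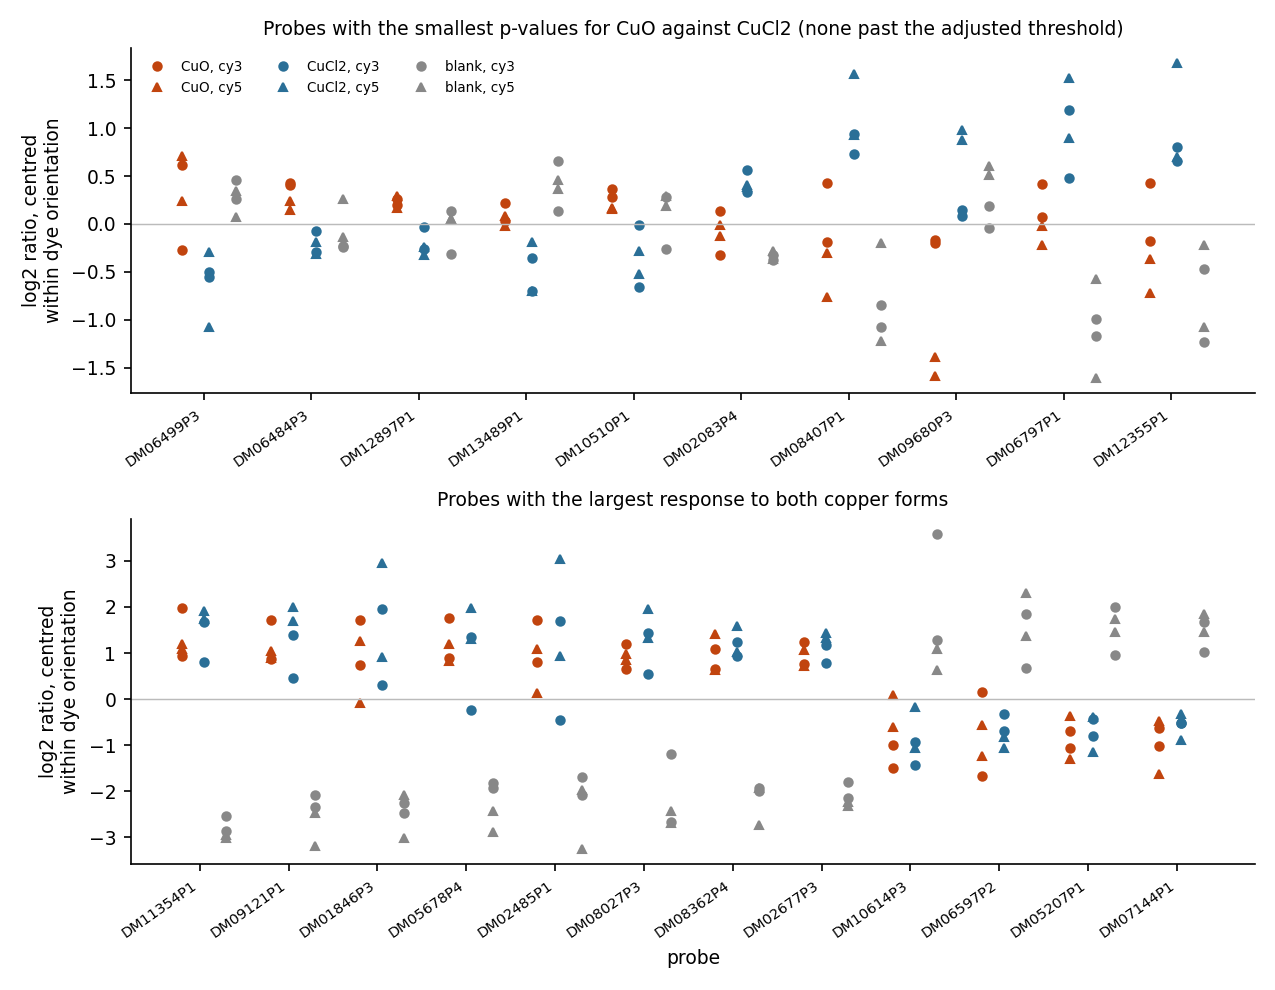
Log2 ratio to the reference, centred within dye orientation (vertical axis), for each array and named probe; circles are cy3 arrays, triangles cy5 arrays, colours are CuO, CuCl2 and blank. In the upper panel the 10 probes with the smallest p-values separate CuO from CuCl2 by selection. In the lower panel both forms overlap in the 8 largest rises and 4 largest falls. Single CuO arrays of DM06597P2 and DM10614P3 lie near the lowest blanks.

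The probes with the largest rises and the largest falls rose or fell in both forms, and in 10 of the 12 described the estimate was lower in CuO. That count joins rises, where lower means a smaller response to CuO, with falls, where it means a larger one. In all, 1907 probes (44.9%) were called for both forms together against blank, 1001 higher (23.6%) and 906 lower (21.3%), and by rule the 8 largest rises and 4 largest falls among them are described. In each of these the values of CuO and CuCl2 overlapped, as they did in all but 3.58% of the 4247 probes. DM11354P1, the largest rise, had 1.98, 0.93, 1.10 and 1.21 in CuO replicates 1 to 4 and 1.68, 0.80, 1.74 and 1.92 in CuCl2 replicates 1 to 4, where the blanks lay between -3.02 and -2.53. Its fold over blank was 17.6 in CuO and 20.7 in CuCl2, and the difference between forms was -0.23 (SE 0.28, 95% interval -0.84 to 0.37). DM09121P1 had 1.71, 0.87, 0.89 and 1.05 in CuO and 1.39, 0.46, 1.69 and 2.01 in CuCl2. In both probes the second replicate was the lowest array of each form and CuO replicate 1 the highest CuO array.

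The intervals of the other rises differed in width. DM02677P3 had the smallest SE of the difference among the 12 (0.18). It rose 8.40-fold in CuO and 9.90-fold in CuCl2, with values of 1.23, 0.76, 1.07 and 0.71 in CuO and 1.17, 0.79, 1.33 and 1.44 in CuCl2. Its difference of -0.24 had a 95% interval of -0.64 to 0.17, so a difference above 1.56-fold is outside it. DM08362P4 rose 8.55-fold in CuO and 10.2-fold in CuCl2, with a difference of -0.25 (95% interval -0.78 to 0.28). DM08027P3 rose 8.90-fold and 11.7-fold, with a difference of -0.39 (-1.18 to 0.39). DM05678P4 was the 1 riser of the 8 whose estimate was higher in CuO, by 0.06 (-0.87 to 1.00), with folds of 10.8 and 10.3. Without CuCl2 replicate 4 its estimate was 0.39, and without CuCl2 replicate 2 it was -0.43.

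In DM01846P3 and DM02485P1 single arrays weighed on the estimate. DM01846P3 had 1.73, 0.73, 1.27 and -0.08 in CuO and 1.96, 0.30, 0.92 and 2.96 in CuCl2, a difference of -0.62 with a 95% interval of -1.82 to 0.57. DM02485P1 had 1.72, 0.80, 1.09 and 0.14 in CuO and 1.69, -0.45, 0.94 and 3.04 in CuCl2, a difference of -0.37 (-1.79 to 1.05). In both, CuO replicate 4 was the lowest CuO array and CuCl2 replicate 4 the highest array of all, and their differences on the cy3 arrays had the other sign (0.10 and 0.64). Without CuCl2 replicate 4 the differences were -0.09 and 0.28, and without CuCl2 replicate 2 they were -1.09 and -1.03.

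In the 4 largest falls the values of the forms overlapped too, as in most probes. Against blank DM10614P3 had log2 fold changes of -2.39 in CuO and -2.54 in CuCl2, with a difference of 0.15 (95% interval -1.13 to 1.43). DM06597P2 had -2.37 in CuO and -2.28 in CuCl2, a difference of -0.09 (-0.998 to 0.813). For DM05207P1 the fold changes were -2.39 and -2.23, and for DM07144P1 they were -2.44 and -2.07. DM07144P1 had -1.02, -0.63, -1.63 and -0.47 in CuO and -0.51, -0.52, -0.89 and -0.33 in CuCl2, so CuO replicates 1 and 3 lay below every CuCl2 array and the other two within their range. Its difference of -0.37 had a 95% interval of -0.95 to 0.20.

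The replicates of the 2 dye orientations are separate pools, so a difference between forms that is shared should appear in both. Across the 4247 probes the CuO minus CuCl2 difference on the cy3 arrays correlated with that on the cy5 arrays with Pearson r = 0.26 and Spearman rho = 0.18, and 54.9% of probes had the same sign. The response of both forms against blank, measured in the same way, had r = 0.84 and rho = 0.81, with the same sign for 81.2%. The 2 orientations share no pool, but all arrays share the reference RNA and the probes. Of the 100 largest differences on cy3, 81 had the same sign on cy5, where their median size fell from 0.82 to 0.47. Of the 100 largest on cy5, 75 had the same sign on cy3, with medians of 1.37 and 0.26. The weak correlation rested on which CuCl2 arrays were used: it was -0.32 without CuCl2 replicate 1, 0.57 without CuCl2 replicate 2, 0.11 without CuCl2 replicate 4 and 0.06 without CuO replicate 2. Its sign thus changed with the choice of CuCl2 arrays.

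**Figure D3:**
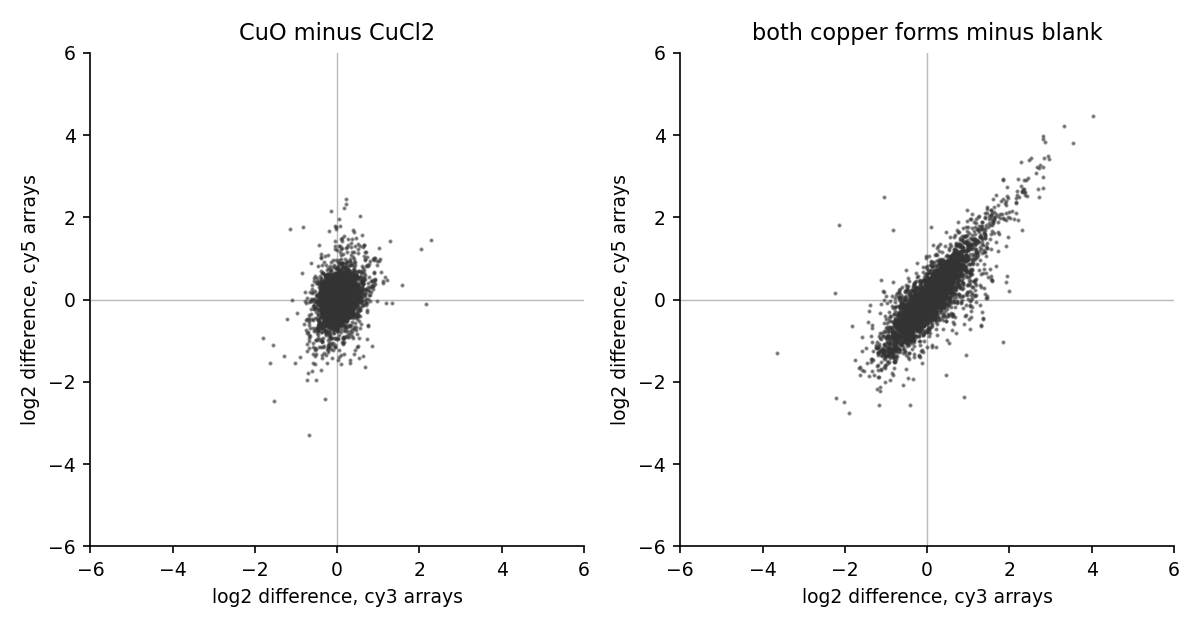
Log2 difference of each of 4247 probes on the cy3 arrays (horizontal axis) against the cy5 arrays (vertical axis), for CuO minus CuCl2 on the left and for both copper forms minus blank on the right, on the same scale. The left cloud is centred near 0 (r = 0.26) and spreads more along the cy5 axis (RMS 0.414) than along the cy3 axis (RMS 0.273). The right cloud is drawn out along the diagonal (r = 0.84).

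By class medians, the difference between forms, where there was any, followed the size of the copper response. Of the 60 probes that both forms together raised over 4-fold, 58 had an estimate lower in CuO (96.7%), against 46% of all probes, with a median difference of -0.33 on the log2 scale. Their median log2 fold change against blank was 2.34 in CuO and 2.67 in CuCl2. Of the 226 probes raised 2- to 4-fold, 183 were lower in CuO (median difference -0.22), and of the 715 raised less than that, 486 were (median -0.08). As a class the falls mirrored this. Of the 142 probes lowered at least 2-fold, 16 were lower in CuO, and the median difference was 0.30, that is, a smaller fall in CuO. The largest falls did not all follow it. DM06597P2, DM05207P1 and DM07144P1 were lower in CuO (-0.09, -0.16 and -0.37) and DM10614P3 was higher (0.15). The 2340 probes without a call had a median difference of 0.03. In none of these classes was a probe called for the difference, and an unadjusted p under 0.05 was reached by 4.66% of all probes. It was reached by 7 of the 60, 15 of the 226, 40 of the 715, 38 of the 764 lowered less than 2-fold and 9 of the 142. The classes were formed from the mean of both forms on the same arrays, and CuCl2 values spread more between replicates (RMS SD 0.405 against 0.317), so choosing large responses can favour extreme CuCl2 values.

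The size of the response on each array showed which pools carried this. Over the 60 strongest risers the median log2 ratio over the blanks of the same orientation was 2.58, 2.05, 2.51 and 2.32 in CuO replicates 1 to 4 and 2.78, 1.97, 2.60 and 3.65 in CuCl2 replicates 1 to 4. Over both orientations the CuCl2 pools thus held both the weakest and the strongest response. On the cy3 arrays both CuO pools lay between the 2 CuCl2 pools, but on the cy5 arrays both lay below them. Over the 142 probes lowered at least 2-fold, the medians were -0.98, -1.04, -1.34 and -0.84 in CuO and -1.40, -0.87, -1.36 and -1.80 in CuCl2. CuCl2 replicate 4 was again the most extreme array, and CuCl2 replicate 2 and CuO replicate 4 the mildest.

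Without CuCl2 replicate 4 the median difference of the 60 strongest risers was -0.12, with 45 lower in CuO, and that of the 142 fallers was 0.18. Without CuCl2 replicate 2 the medians were -0.56, with 60 of the 60 risers lower in CuO, and 0.44. Without CuO replicate 4 the fallers had 0.18. Quantile normalization gave the 60 risers a median of -0.16, and a common median absolute deviation for all arrays gave -0.22. Within the cy3 orientation the 60 risers had a median difference of -0.05, with 33 lower in CuO, and within the cy5 orientation one of -0.65, with all 60 lower.

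Classes formed on the other dye orientation, whose arrays share no pool with the difference, gave the same contrast between orientations. The 47 probes that rose at least 4-fold on the cy3 arrays had a median difference on the cy5 arrays of -0.55, with 46 lower in CuO, or of -0.23 with 40 lower when CuCl2 replicate 4 was left out. The 82 probes that rose at least 4-fold on the cy5 arrays had a median difference on the cy3 arrays of -0.05, with 46 lower in CuO. Among the 223 probes that fell 2- to 4-fold on the cy5 arrays, 76 were lower in CuO on the cy3 arrays (34.1%, against 49.1% of all probes), with a median difference of 0.09. The 11 that fell at least 4-fold on cy5 went the other way on cy3, with 7 lower in CuO and a median of -0.24. The 100 probes that fell 2- to 4-fold on cy3 had a median of 0.34 on cy5, with 15 lower in CuO. The 5 that fell at least 4-fold on cy3 had 0.18 on cy5, with 2 lower in CuO. Without CuCl2 replicate 4 these 5 had -0.05, with 3 lower. Of the 142 fallers above, 41 were lower in CuO on the cy3 arrays (28.9%, median 0.10) and 19 on the cy5 arrays (13.4%, median 0.45). A smaller median response to CuO was thus measured on the cy5 arrays for rises and for falls of 2- to 4-fold. On the cy3 arrays these medians were nearer to 0, and the few falls of at least 4-fold had no single direction.

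**Figure D4:**
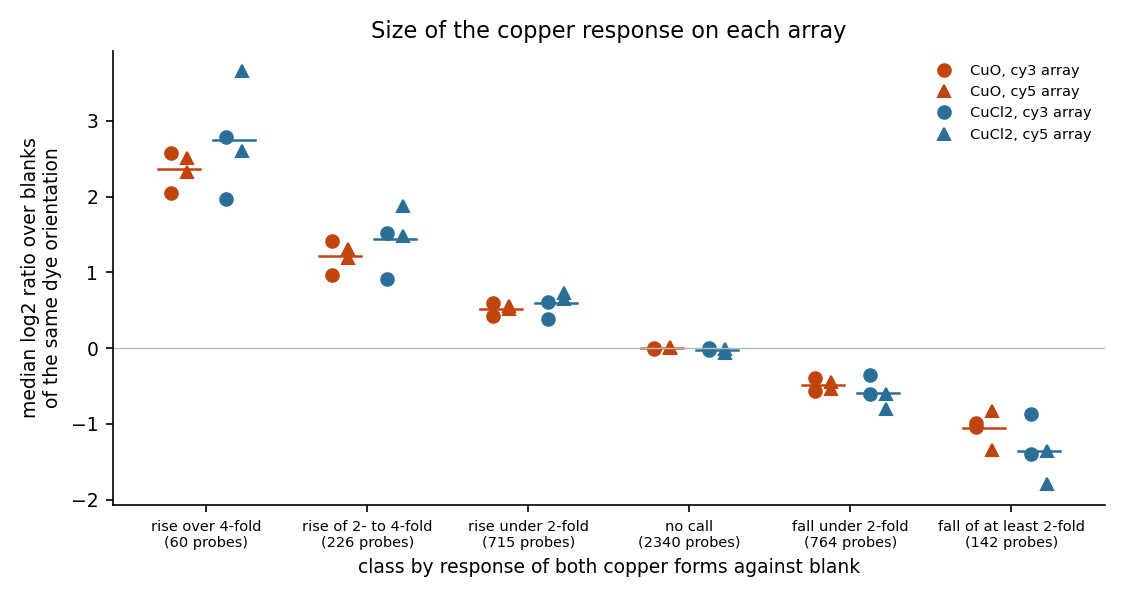
Median log2 ratio over the blanks of the same dye orientation (vertical axis) for each copper array, in 6 classes of probes by their response to both forms against blank; circles are cy3 arrays, triangles cy5 arrays, and lines the mean of the 4 arrays of a form. Among the strongest risers the CuO arrays of both orientations lie between 2.05 and 2.58, within the CuCl2 range of 1.97 to 3.65. On the cy5 arrays alone both CuO arrays lie below both CuCl2 arrays.

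Probes called against blank in 1 form alone did not stand apart in the direct test. Of these, 600 were called for CuCl2 and not for CuO, and 153 for CuO and not for CuCl2. None of either set passed the direct comparison, where 0% of all probes were called. An unadjusted p under 0.05 was reached by 72 of the 600 (12%) and 17 of the 153 (11.1%), against 4.66% of all probes. Both sets were picked with arrays that also enter the difference, so these shares are larger by selection. Within the 600 the median absolute log2 fold change against blank was 0.61 in CuCl2 and 0.38 in CuO. Within the 153 it was 0.53 in CuO and 0.32 in CuCl2.

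The size of the difference that the data exclude was read from the 95% interval of each probe. For the median probe the interval reached to a 1.41-fold difference, for 3 in 4 probes it ended below 1.64-fold, and for 95% of probes below 2.75-fold. The interval lay within 3-fold for 96.0% of probes and within 4-fold for 98.3%, and it reached 4-fold or more for 71. An equivalence test asks the reverse of the usual test, whether a difference as large as a stated fold is rejected. With adjustment over all probes, it placed 3833 of 4247 (90.3%) within 2-fold (limma moderated one-sided tests, Benjamini-Hochberg adjusted p under 0.05), 2829 (66.6%) within 1.5-fold and 4214 (99.2%) within 4-fold. Under a stricter reading, with all 4247 intervals required to hold at once (Bonferroni), 14.9% of probes were within 2-fold, 65.1% within 3-fold and 79.5% within 4-fold.

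Among probes that responded to copper, the stronger responders had the wider bounds at the median. The difference passed the 2-fold equivalence test for 704 of the 715 probes that copper raised less than 2-fold and 752 of the 764 that it lowered less than 2-fold. It passed for 2064 of the 2340 without a call, for 172 of the 226 raised 2- to 4-fold, for 38 of the 60 raised over 4-fold and for 103 of the 142 lowered at least 2-fold. In the 60 strongest risers the interval reached to 2.004-fold at the median. Without CuCl2 replicate 4 the test passed for 47 of the 60 and for 3983 probes in all. Without CuCl2 replicate 2 it passed for 25 of the 60 and for 3679 probes in all. Leaving out any other copper array also lowered the count among the 60, to between 25 and 36. The difference was also set against the joint response, the mean of both forms against blank. A difference of 200% of it would mean that 1 form had no effect, and one of 100% that 1 form acted 3 times as strongly as the other on the log2 scale. The interval ended below 200% of the estimated joint response for 1906 of the 1907 responding probes, below 100% for 1290 (67.6%) and below 50% for 225 (11.8%). A called response is by its threshold large against its error, so the first of these shares is high by selection.

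**Figure D5:**
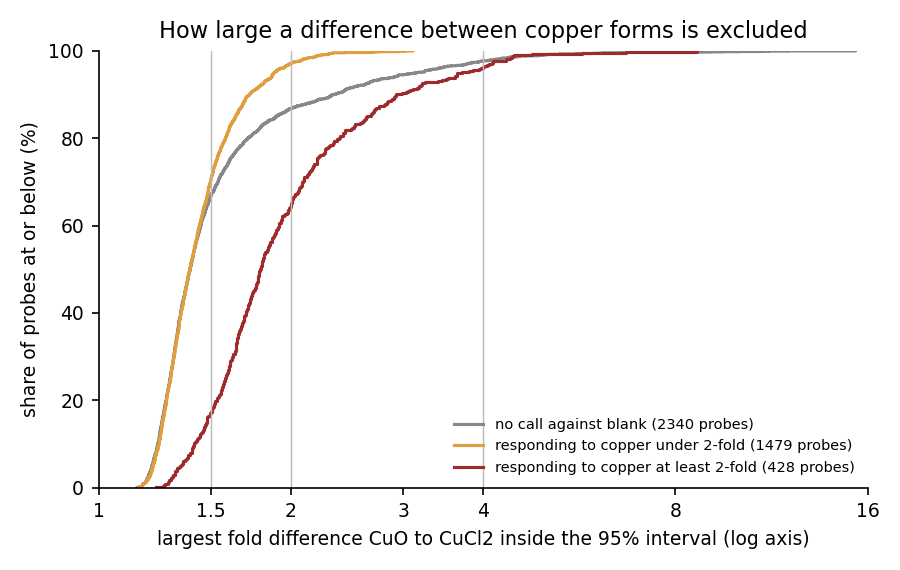
Share of probes (vertical axis, %) whose 95% interval for CuO against CuCl2 ends at or below a given fold difference (horizontal axis, log scale), for probes with no call against blank, probes responding under 2-fold and probes responding at least 2-fold. The last group lies to the right of the others, so larger differences remained possible there.

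A difference confined to a single probe would have needed to be large to be called. With 4247 probes tested, a lone differing probe needed an estimated difference of 2.32-fold at the median precision. The need was 1.99-fold at its lower quartile and 3.05-fold at its upper quartile. An estimate below the need of its own probe would not have been called in a lone probe. Smaller differences in a few probes could therefore have gone uncalled with 4 arrays per form.

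The 71 probes with 4-fold inside their interval had large SEs, and a smaller share of them was called against blank. Of these, 16 were called against blank (22.5%), against 44.9% of all probes, and their median SE was 0.60 against 0.16 for the other 4176. A wide interval selects for a large SE, and a large SE makes a call against blank less likely. The lower share therefore does not show that these probes respond less to copper. The 3 largest estimated differences of the table were among the 71. DM00920P3 differed by -1.996 (95% interval -3.48 to -0.51), with CuO values of -0.68, -0.29, -3.53 and -1.48 and CuCl2 values of -0.61, 1.02, 0.85 and 0.74. DM07518P2 differed by -1.99 (-3.94 to -0.05), with CuO values of -0.62, -0.27, -2.71 and 1.53 and CuCl2 values of -0.42, 2.61, 2.19 and 1.53. DM06182P1 differed by 1.86 (0.14 to 3.59), with CuO values from 0.49 to 1.02 and CuCl2 values of -3.21, 0.51, 0.43 and -1.99. In each of these probes the forms overlapped. The estimate was -1.23 for DM00920P3 and -1.17 for DM07518P2 without CuO replicate 3, and 1.06 for DM06182P1 without CuCl2 replicate 1. Against blank DM00920P3 was called lower in CuO, at -2.49 (limma adjusted p = 0.0193), and had -0.50 in CuCl2 (limma adjusted p = 0.578). The 3 widest intervals belonged to DM04127P3, DM12171P1 and DM12189P1, with SEs of 1.14, 1.01 and 0.91. In DM12189P1 a single value of -4.52 in CuCl2 replicate 4 stood against -0.48 to 0.80 in the other CuCl2 replicates. Without that array its difference was 0.04 in place of 1.33, and its response to both forms, -0.54, was called (limma adjusted p = 0.0106).

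Replicate pools of the salt differed more among themselves than those of the particle. The RMS over probes of the SD between replicates of the same dye orientation was 0.317 for CuO, 0.405 for CuCl2 and 0.342 for the blanks, while the median SDs were 0.194, 0.212 and 0.202. The SD was smaller in CuO than in CuCl2 for 56.7% of probes. The spread of the salt group includes CuCl2 replicate 4, and on the cy3 arrays, which do not, the replicate distances were the 0.474 of CuO and 0.548 of CuCl2 given above. With 2 pools per orientation this difference in spread was not tested.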

How the data were processed

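Total RNA of 12 pools of 40 Daphnia magna each was labelled from 100 ng and hybridised on two-colour Agilent arrays, 1 pool per array against the copper reference, per the labels' protocols. The authors deposited 1 value table of 4262 rows with log2 ratios, taken as base 2 because that is the scale of limma, which the submitters' processing notes name with no version. For its base, direction, centring, background correction, normalization and row selection the entry is: not given in the sources used here. Scanner signals and slides were not used here. The 15 control rows were set aside, leaving 4247 probes with 0 missing values and 1 probe per probe number. Probe numbers run up to 15415, so counts hold for these rows only. None of the IDs (0) occurs in the RefSeq gene table of assembly ASM2063170v1.1.

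Values of both dye orientations were used as deposited. The 15 control probes all changed mean sign between cy3 and cy5 arrays (r = -0.996), whereas the dye-centred group means of the Daphnia probes had r = 0.75, so the columns already run one way. Cells of the cy3 columns carry up to 7 significant digits and those of the cy5 columns 10. For the 92 probes whose group means span at least 2, the log2 of the mean linear ratio over the 3 groups had a median of -0.08 as deposited and 0.88 with the sign turned, where an equal mixture requires 0. Sample over reference is the likely direction on that basis. The lowest correlation of a blank with a CuCl2 array in the same orientation was r = -0.55, and since the dyes are stated and both lie on either side of a mixed reference, the direction was kept. Column medians lay between -0.06 and 0.04.

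Group and dye orientation were fitted on all 12 arrays with limma 3.58.1 in R 4.3.3 (8 residual degrees of freedom), with Benjamini-Hochberg adjustment over 4247 probes at 0.05. Equivalence used 2 one-sided moderated tests from that fit. The fit was tested on simulated data. The rule for named probes took the 5 smallest p-values of the difference per direction, the 8 largest rises and 4 largest falls of both forms against blank, the 3 widest intervals and the 3 largest differences. These rules, lists and tests were chosen with earlier results of these data known. Labels describe separate replicate exposures. Replicate numbers 1 and 2 are cy3 and 3 and 4 are cy5 in each group. Same-numbered CuO and CuCl2 arrays deviated together from their group means (r from 0.18 to 0.54), but with the orientation removed r was 0.27 for cy3 and -0.24 for cy5, so the numbers share the dye and were not taken as pairs.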

Additional observations from a re-analysis of the deposited data

Results flagged for a closer look

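A single array far from the other replicates was found in 3 of 68 groups of 4 values, where chance alone flags about 1 in 20. Over probes, log2 ratios of CuCl2 replicate 4 had an SD of 0.711, with the next CuCl2 array at 0.434. On CuO replicate 4 the SD was 0.357, with the next CuO array at 0.429. The dye-centred log2 ratio of DM12355P1 was 1.67 in CuCl2 replicate 4, against 0.65 to 0.81 in the other CuCl2 replicates, and without that array its difference between forms was -0.90.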

How the results depend on the processing

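The count of probes that differ between CuO and CuCl2 was 0 in 22 of the 23 alternatives run, among them the replicate block (0 probes, smallest limma adjusted p = 0.797), and 1 on the cy5 arrays alone. Leaving out any of the 12 arrays gave 0 to 0. Probes placed within 2-fold by the equivalence test numbered 3876 with the replicate block and from 3320 to 3983 over 22 alternatives (from 3679 to 3983 with 1 array left out). The RMS difference over all probes ran from 0.214 to 0.376 over 12 alternatives, with exact permutation p from 0.0556 to 0.833. Probes responding to both copper forms numbered 1243 with no dye term, 201 on the cy3 arrays alone, 1083 on the cy5 arrays alone, 1835 with the replicate block and from 1407 to 2018 with 1 array left out. The share of rises among them was 46.5% after quantile normalization and 79.1% on the cy3 arrays alone, against 52.5% as deposited. The cause of these changes was not tested, other than that single orientations hold fewer arrays. Leaving out a blank moved none of the counts of the direct comparison by over 1.5 times. No called response of a named probe changed sign in the alternatives run for it. Averaging probes of the same number was not run because each number has 1 probe. Array number limits precision, since signals over background were not used here. The replicate block changed no call of the direct comparison. The dye interaction, the classes from the other orientation, and the omission of arrays from the classes and from the correlation between orientations were added after the data were seen.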
